A study of Homo sapiens with 4 samples.

Results

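The genes that release calcium from the endoplasmic reticulum, sense its loss and refill the store were followed in 4 human lines of acute lymphoblastic leukemia of the precursor-B type. The 10 genes were picked by symbol from the 23368 entries of the count table: the IP3 receptors ITPR1, ITPR2 and ITPR3, the sensors STIM1 and STIM2, the entry channels ORAI1, ORAI2 and ORAI3, and the SERCA pumps ATP2A2 and ATP2A3. The difference between lines with and without t(4;11) was already known when these 10 genes were chosen. That difference is therefore given as a description, with no p-value for any of them. The translocation t(4;11) fuses the histone methyltransferase gene KMT2A, also called MLL, with AFF1, and it is present in RS4;11 and SEM. The controls NALM6 and REH are labelled only as lacking it. REH carries a fusion of its own, ETV6-RUNX1, and other fusions or mutations of the 4 lines are not covered here. Culture was in RPMI with 10% fetal bovine serum, the labels name no drug or other agent, and 1 mRNA library was made from each. Below, RS4;11 and SEM are called the translocation lines, and values listed without names run in the order RS4;11, SEM, then NALM6, REH. A group held 2 lines (n = 2), each from a single patient's leukemia, and the spread within a group holds every other difference between its lines. Other differences that fall between the groups cannot be told apart from t(4;11), so "with t(4;11)" below names the group of lines only.

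IP3 receptors are channels in the membrane of the endoplasmic reticulum that open when phospholipase C makes the messenger IP3, as it does downstream of the B-cell receptor and its precursor form. SERCA pumps return calcium to the store. When the store empties, STIM proteins in its membrane cluster beneath the cell surface and open ORAI channels, so that calcium enters from outside. In lymphocytes this entry feeds calmodulin, the phosphatase calcineurin and the NFAT transcription factors.

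Summed gene counts ranged from 33620574 (SEM) to 84212986 (REH) per library. All 10 genes passed the filter on low counts that left 13844 genes for the fit. Levels are in CPM, the gene's count per 1000000 summed gene counts of its line. Of 8 precursor-B markers, 8 reached 1 CPM in RS4;11, SEM and NALM6 and 7 in REH, where VPREB1, part of the surrogate light chain, had 0.226 CPM. The markers summed to 1211 CPM in SEM and to between 2134 and 2440 CPM in the other lines. SEM was low in VPREB1 (16.4 CPM), IGLL1 (27.1 CPM) and CD79B (9.73 CPM), which had 294, 462 and 122 CPM in RS4;11. CD3D, CD3E and CD3G of T cells, ELANE of granulocytes and HBB of red cells had 0 counts in every line. Some genes of other lineages were present, with NKG7 at 26.1 CPM in RS4;11, CSF1R at 33.3 CPM in SEM and MPO at 34.2 CPM in REH. The 6 markers of T and NK cells summed to 26.1 and 11.2 CPM, with the controls at 0.959 and 1.69 CPM. The sums of the myeloid markers ran from 14.5 to 48.7 CPM in the translocation lines and from 14.5 to 40.6 CPM in the controls, and those of the erythroid and megakaryocyte markers were at most 0.285 CPM. Their part in the results was not tested. In RNA from a whole culture, fewer cells that express a gene and less RNA per cell cannot be told apart.

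Of the 10 genes, ITPR3, the type 3 IP3 receptor, spread most widely over the lines. Its level was 1.14 CPM (RS4;11) and 0.416 CPM (SEM), with 224 CPM (NALM6) and 309 CPM (REH) in the controls. The translocation lines thus held almost no ITPR3 transcript, far below both controls. Their values rest on 59 and 14 counts, and their exact Poisson 95% intervals, which cover counting error only, were 0.866 to 1.47 CPM and 0.228 to 0.699 CPM. Mean levels were 0.777 ± 0.510 CPM and 267 ± 59.8 CPM (SD, n = 2 each), a 343-fold difference. The log2 fold change of t(4;11) over control, from edgeR's quasi-likelihood fit, was -8.29 (SE 0.73). It was -9.22 without RS4;11 and -7.74 without SEM. Ranked from the lowest, that of all 4 lines stood at place 47 of the 13844 tested genes.

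ITPR2, the type 2 receptor, went the other way. Its level was 77.0 CPM (RS4;11) and 142 CPM (SEM), with 63.4 CPM (NALM6) and 49.7 CPM (REH) in the controls, for a log2 fold change of 1.05 with an SE of 0.37. Both translocation lines lay above both controls, RS4;11 by a narrow margin, and the log2 fold change was 0.57 without SEM. ITPR1, the type 1 receptor, stood at 26.4 and 33.8 CPM, with the controls at 68.7 and 43.7 CPM (log2 fold change -0.80, SE 0.33). Both translocation lines lay below both controls, and the value was -0.44 without NALM6. In hg19, ITPR2 spans 26488285 to 26986131 on chromosome 12 and ITPR1 spans 4535032 to 4889524 on chromosome 3.

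To compare the receptors with each other, CPM was divided by the length of annotated exons, and each gene's share of the family sum was taken. ITPR3 made up 67.2% of IP3 receptor transcript in NALM6 and 79.9% in REH, but 1.28% in RS4;11 and 0.278% in SEM. ITPR2 made up 74.9% in RS4;11 and 81.7% in SEM, against 16.4% in NALM6 and 11.1% in REH. The leading receptor was thus ITPR3 in the controls and ITPR2 in the translocation lines. The family as a whole was also lower with t(4;11), at 8.97 and 15.2 CPM per kb, with the controls at 33.8 and 39.2 CPM per kb. ITPR2 was higher in the translocation lines, but by much less than ITPR3 was lower. In the authors' deposited Cuffdiff table, whose FPKM are per length and given once per group, ITPR3 stood at 0.0908 with t(4;11) and 28.3 in the control, and ITPR2 at 8.93 and 4.33.

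**Figure D1:**
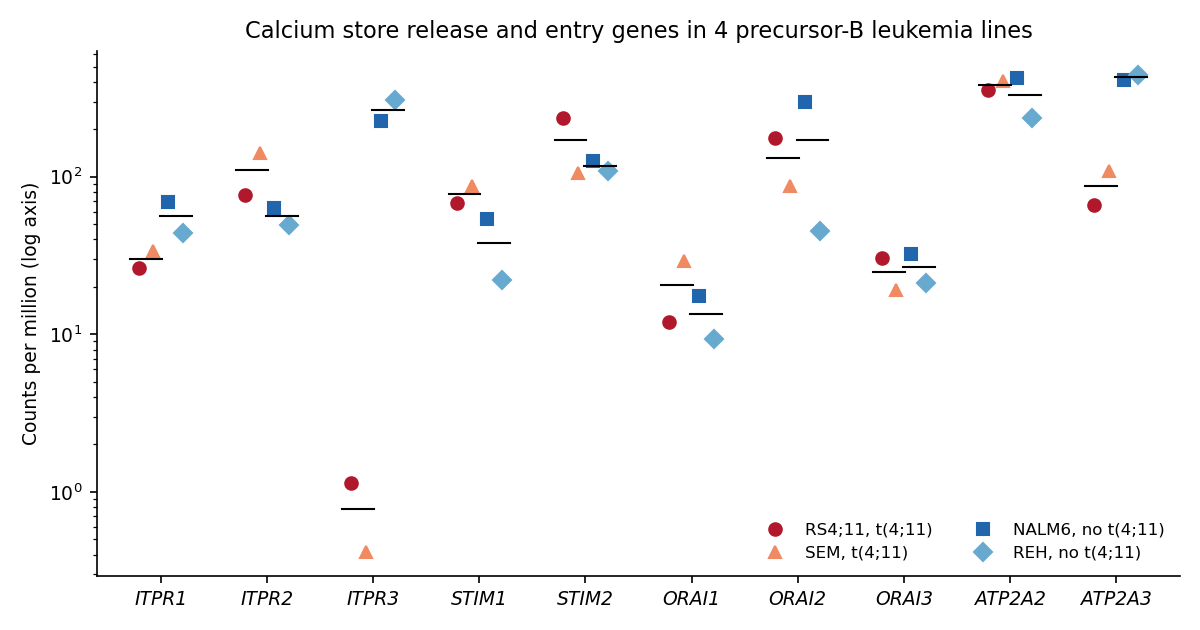
Levels in CPM (log axis) of the 10 genes in each line, with horizontal bars at the mean of the 2 lines of a group. ITPR3 lies at 1.14 and 0.416 CPM in the translocation lines and at 224 and 309 CPM in the controls. ATP2A3 is the other gene with a wide gap, and the ORAI genes overlap.

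ITPR3 lies on chromosome 6 (33589156 to 33664348, hg19, the span in the authors' deposited Cuffdiff table). Its neighbour MNF1, a mitochondrial assembly factor whose locus begins 998 bases further on, was also lower with t(4;11). MNF1 stood at 1.99 and 2.68 CPM, with the controls at 16.1 and 18.2 CPM (log2 fold change -2.78, SE 0.47). It was singled out after its values were seen. The library kit does not mark strand, so reads that run past the end of ITPR3 could not be told from those of MNF1, and their part was not tested. Among the other tested genes within 100 kb, BAK1, which encodes a pro-apoptotic BCL2-family protein, had a log2 fold change of -0.14 (SE 0.32). LEMD2, which encodes a nuclear envelope protein, had -0.30 (SE 0.23), with both translocation lines below both controls.

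The RefSeq promoter table (GRCh38.p14) held entries for 7 of the 10 genes. The 250 bases before the annotated start are shown for ITPR3, the gene with the largest difference between groups, and for STIM1, which differed in the opposite direction. Capitals mark the GC box core GGGCGG or its reverse complement, where neighbouring matches can overlap. The windows lie on the plus strand at chr6:33621072-33621321 and chr11:3855414-3855663, and the STIM1 window belongs to the first of 4 starts that the table lists.
ITPR3: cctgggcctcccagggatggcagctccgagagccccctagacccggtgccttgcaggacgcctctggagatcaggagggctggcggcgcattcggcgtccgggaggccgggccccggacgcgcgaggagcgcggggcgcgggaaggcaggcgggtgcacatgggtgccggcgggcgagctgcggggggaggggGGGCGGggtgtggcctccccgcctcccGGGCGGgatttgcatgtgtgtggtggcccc
STIM1: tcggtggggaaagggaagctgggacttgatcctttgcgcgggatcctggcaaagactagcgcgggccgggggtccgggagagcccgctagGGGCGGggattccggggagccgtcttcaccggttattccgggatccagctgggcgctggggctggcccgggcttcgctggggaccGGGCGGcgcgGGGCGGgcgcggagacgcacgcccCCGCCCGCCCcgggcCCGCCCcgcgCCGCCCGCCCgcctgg
The ITPR3 window held 2 matches and 26 CG dinucleotides, at a GC content of 76.8%. The STIM1 window held 8 matches and 34 CG dinucleotides, at 77.2%. The windows of the other STIM1 starts held 0, 2 and 8 matches, and the one with 0 held 5 CG dinucleotides at 56% GC. Over all 35114 windows of this length, 42.6% held at least 1 match, and the medians were 11 CG dinucleotides and 58.0% GC. Both windows shown were richer in GC than the median window. None of the 11 windows of these genes held TATAAA on either strand, against 10.7% of all windows that did.

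The SERCA pumps differed between the groups at ATP2A3 and not clearly at ATP2A2. ATP2A3, which encodes the SERCA3 pump of blood and epithelial cells, measured 66.3 CPM (RS4;11) and 109 CPM (SEM), with 411.15 CPM (NALM6) and 445 CPM (REH) in the controls. The groups were far apart, with means of 87.7 ± 30.3 CPM and 428 ± 23.7 CPM (SD, n = 2 each). This was a 4.88-fold lower mean level with t(4;11), with a log2 fold change of -2.19 (SE 0.30). ATP2A2, which encodes the widely expressed SERCA2 pump, stood at 356 and 405 CPM, with the controls at 423 and 237 CPM (log2 fold change 0.31, SE 0.34). These groups overlapped, with NALM6 highest and REH lowest, and the sign turned without REH (-0.06). The gene spans 110719032 to 110788897 on chromosome 12 (hg19).

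Per kb of exon, ATP2A3 made up 17.8% of the SERCA pair in RS4;11 and 23.8% in SEM, against 53.0% in NALM6 and 68.5% in REH. Per kb, ATP2A2 was therefore the major pump transcript in the translocation lines and ATP2A3 in the controls, in NALM6 by a narrow margin. Without division by length, ATP2A3 took 49.3% of the pair's counts in NALM6 and 65.2% in REH. The order in NALM6 thus leans on the exon lengths. The pair summed to 76.4 and 93.8 CPM per kb, with the controls at 159 and 133 CPM per kb. ATP2A3 lies on chromosome 17 (3827163 to 3867758, hg19). The 4 tested genes within 100 kb of it, which include P2RX1, an ATP-gated ion channel, overlapped between the groups, with log2 fold changes between -0.40 and 1.04.

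**Figure D2:**
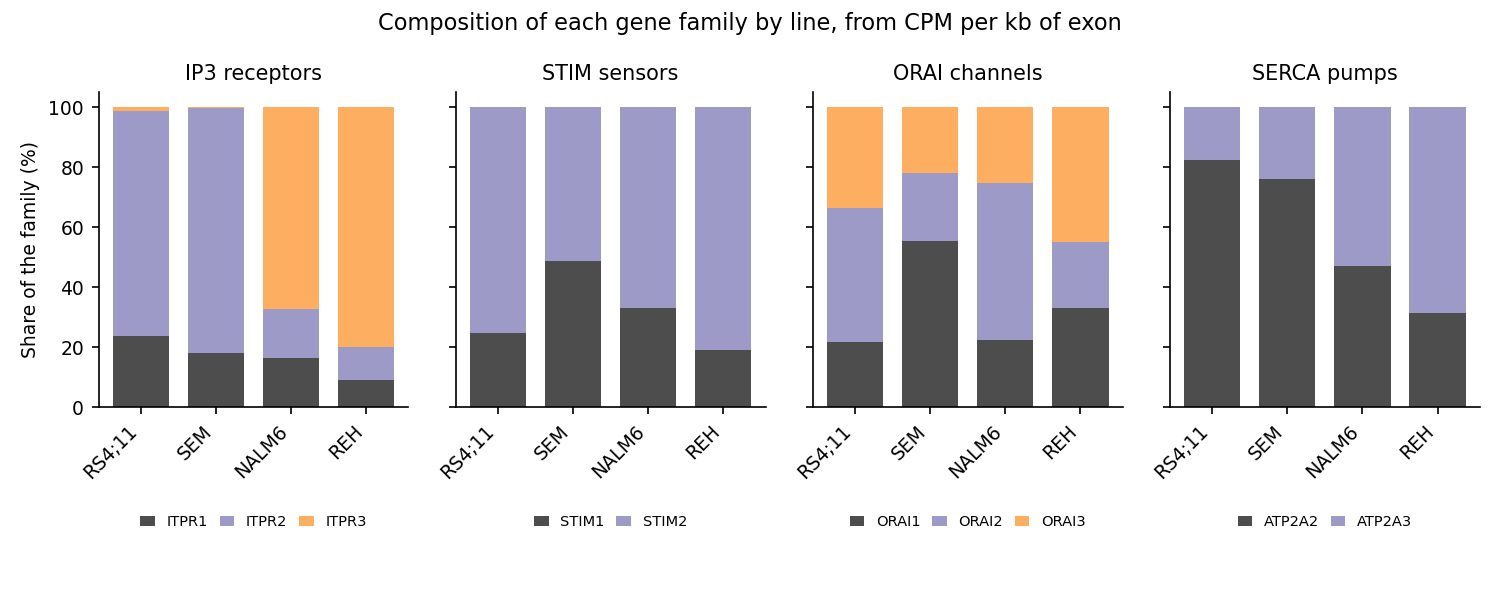
Share of each gene in the length-scaled sum of its family (%, CPM per kb of exon), 1 bar per line and 1 panel per family. ITPR3 fills 67.2% and 79.9% of the IP3 receptor bar in NALM6 and REH and at most 1.28% in the translocation lines, and ATP2A3 fills 53.0% and 68.5% of the SERCA bar against 17.8% and 23.8%. The STIM and ORAI bars do not divide by group.

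Of the store sensors, STIM1 was higher in both translocation lines. It measured 67.6 CPM (RS4;11) and 86.8 CPM (SEM), with 53.9 CPM (NALM6) and 22.2 CPM (REH) in the controls. The lines did not overlap, but the controls differed 2.42-fold from each other. The log2 fold change was 1.12 (SE 0.51), and it was 0.62 without REH and 1.90 without NALM6. STIM2, the paralog that responds to small losses of store calcium, had 237 CPM (RS4;11) and 105 CPM (SEM), with 125 CPM (NALM6) and 108 CPM (REH) in the controls. RS4;11 stood alone above the other lines, which lay close together. The log2 fold change of STIM2 was 0.66 (SE 0.46), and -0.05 without RS4;11. Per kb, STIM2 exceeded STIM1 in all 4 lines, from 1.06 times in SEM to 4.24 times in REH. STIM1 lies on chromosome 11 (3876933 to 4114440, hg19) and STIM2 on chromosome 4 (26862313 to 27027003, hg19).

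The ORAI channels did not separate the groups. ORAI1, the main pore subunit of store-operated entry in lymphocytes, had 11.9 CPM (RS4;11) and 29.1 CPM (SEM), with 17.5 CPM (NALM6) and 9.37 CPM (REH) in the controls. SEM was highest, and RS4;11 lay between the controls (log2 fold change 0.71, SE 0.64, and -0.04 without SEM). ORAI2, a paralog that joins ORAI1 in mixed channels, had 177 CPM (RS4;11) and 87.4 CPM (SEM), with 296 CPM (NALM6) and 45.1 CPM (REH) in the controls. The controls were its highest and lowest lines, 6.56-fold apart, the widest gap within a group for any of the 10 genes. Its log2 fold change was -0.26 (SE 1.01), and it turned positive without SEM (0.18) and without NALM6 (1.66), while it was -0.87 without RS4;11 and -1.06 without REH. ORAI3, which also forms channels gated by arachidonic acid, had 30.6, 19.0, 32.6 and 21.2 CPM in RS4;11, SEM, NALM6 and REH (log2 fold change -0.01, SE 0.42, with 0.31 without SEM and 0.33 without NALM6). The lines nearest to each other were RS4;11 and NALM6, and SEM and REH, across the groups. In hg19, ORAI1 lies on chromosome 12 (122064455 to 122079946) and ORAI3 on chromosome 16 (30960405 to 30966259). ORAI2 lies on chromosome 7, within a locus (102073996 to 102105321) whose span is given jointly for ORAI2 and ALKBH4.

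Per kb of exon, the leading ORAI gene was ORAI2 in RS4;11 (44.5% of the family) and NALM6 (52.4%), ORAI1 in SEM (55.2%) and ORAI3 in REH (45.1%). These shares lean on the exon lengths, since ORAI2 has 10811 annotated bases against 1496 for ORAI1. Without division by length ORAI2 took between 59.6% (REH) and 85.5% (NALM6) of the family's counts. ORAI2 shares its locus with ALKBH4, whose reads cannot be separated from it where they overlap, and ALKBH4 itself ran from 8.80 CPM (SEM) to 17.8 CPM (REH).

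Across the 10 genes, 3 were lower in both translocation lines than in both controls (ITPR1, ITPR3 and ATP2A3) and 2 were higher (ITPR2 and STIM1), while 5 overlapped. Of all 13844 tested genes, 28.3% were lower and 19.0% higher in this sense. On TMM-scaled library sizes the same 5 genes did not overlap, while the shares over all genes became 23.4% and 24.2%. A log2 fold change of at least 1 in size was seen in 4 of the 10 (ITPR2, ITPR3, STIM1 and ATP2A3), against 25.1% of all tested genes. The median size of the log2 fold change was 0.76 over the 10 genes and 0.46 over all tested genes. EdgeR's quasi-likelihood test called 0.0% of all tested genes at an adjusted p under 0.05. In the authors' deposited DESeq table, ITPR3 and ATP2A3 had lower calls (2 of 10) and 0 had higher calls, against 0.63% of its genes called lower and 0.934% called higher. Their deposited Cuffdiff table called the same pair lower, against 1.11% lower and 1.23% higher. Since this contrast was known when the genes were chosen, nothing is read from these counts.

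**Figure D3:**
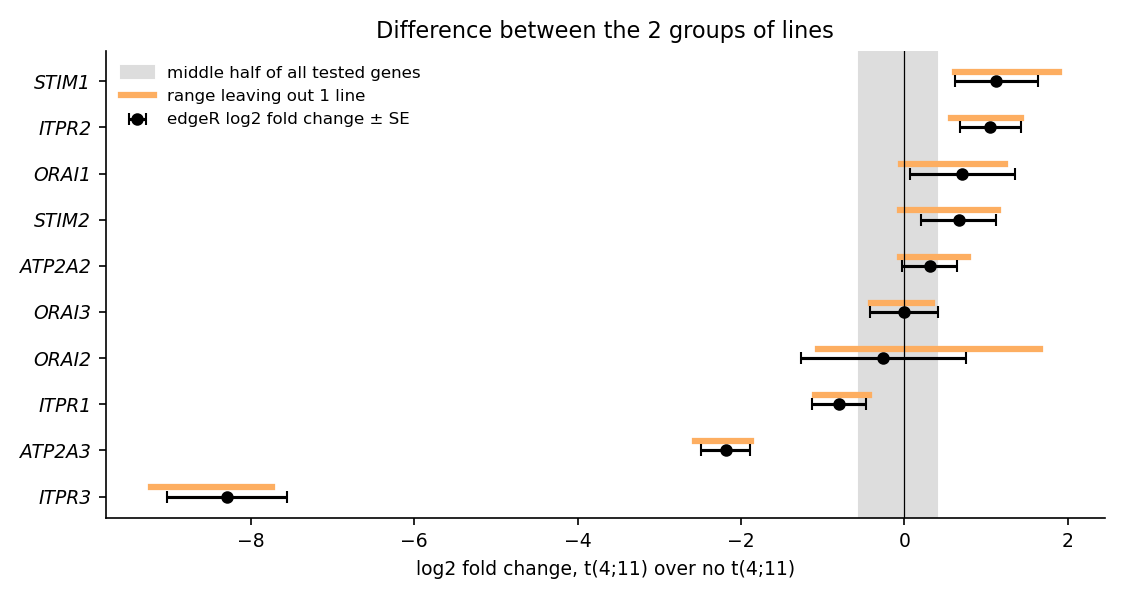
Log2 fold change of t(4;11) over no t(4;11) for the 10 genes, in order of size: points with bars are edgeR's estimate ± SE, orange lines the range when 1 line is left out, and the grey band the interquartile range of all tested genes. ITPR3 (-8.29) and ATP2A3 (-2.19) stay far below 0 in every such fit, while the ranges of STIM2, ORAI1, ORAI2, ORAI3 and ATP2A2 cross it.

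Within the groups, the 10 genes also varied. The median fold between RS4;11 and SEM was 1.74 over the 10 genes and 1.27 over the 13068 tested genes with a count in every line. Between NALM6 and REH these medians were 1.56 and 1.38. The 10 genes were well expressed, with a median of 108 CPM against 27.1 CPM over all tested genes. With 1 library per line, these differences between lines carry no test.

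The other genes of the pathway were taken from 9 lists with 115 genes, of which 96 could be tested. These lists too were chosen with earlier results of these data known, so nothing is read from their counts. None of the 96 passed an adjusted p of 0.05 in edgeR's quasi-likelihood test (0 called, smallest adjusted p = 0.274). At an unadjusted p under 0.05 it placed 12 higher and 6 lower, against 6.18% and 5.87% of all tested genes. Of the 96, 32 were higher and 19 lower in both translocation lines than in both controls, beside the 19.0% and 28.3% of all tested genes given above. On TMM-scaled library sizes these counts were 35 and 17, beside 24.2% and 23.4% of all tested genes, and no list's count moved by more than 2. This comparison of scalings for the lists was added after the data were seen. The median log2 fold change was 0.16 over the 96 genes and -0.02 over all tested genes. Of the 115 genes, the authors' deposited DESeq table called MCOLN2 and NFATC2 higher and NFATC4 lower, beside 0.934% and 0.63% of all its genes. In the authors' deposited Cuffdiff table, 4 of the 115 had higher and 3 lower calls, beside 1.23% and 1.11% of all its genes. The values named below are descriptions, also where a call is given, since the calls come from these same 4 lines.

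Upstream of the receptors, the 12 tested genes of the phospholipase C family centred near 0 (median log2 fold change -0.10). Of these, 4 were lower in both translocation lines and 1 was higher, beside 28.3% and 19.0% of all tested genes. PLCG1, a phospholipase C activated by receptor-linked tyrosine kinases, stood at 38.3 and 28.9 CPM, with the controls at 113 and 198 CPM (log2 fold change -2.11, SE 0.39, edgeR adjusted p = 0.310). The authors' deposited Cuffdiff table called it lower (q = 0.0232). PLCG2, the form that acts behind the B-cell receptor, stood at 95.7 and 68.1 CPM, with the controls at 245 and 212 CPM (log2 fold change -1.37, SE 0.25). Among 7 genes that remove IP3 or break down its products, none had an unadjusted p under 0.05 and the median was 0.47. ITPKA, an IP3 kinase, stood at 24.97 and 4.25 CPM, with the controls at 1.05 and 2.29 CPM. Its log2 fold change of 3.24 (SE 1.16) was 1.44 without RS4;11. INPP1, an inositol polyphosphate phosphatase, stood at 1.83 and 4.67 CPM, with the controls at 0.156 and 1.53 CPM. RS4;11 was close to REH, and NALM6 had 7 counts. The log2 fold change of INPP1 was 2.03 (SE 1.36), with 1.18 without NALM6 and 4.45 without REH.

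Among 7 tested release channels other than the IP3 receptors, 5 were lower in both translocation lines and 1 was higher. Over all tested genes these shares were 28.3% and 19.0%, and the list's median log2 fold change was -0.20. TMCO1 (log2 fold change -0.01) and PKD2 (-0.20) were among the 5, and on TMM-scaled library sizes 4 were lower. The higher gene was MCOLN2, a cation channel of endosomes and lysosomes, with 171 and 40.9 CPM. It had 0.0669 CPM in NALM6 and 0.0356 CPM in REH, which are 3 counts in each, so its fitted log2 value of 11.14 (SE 1.25) and its edgeR adjusted p of 0.274 rest on a few counts. The fitted value was 11.85 without SEM and 9.71 without RS4;11. The authors' deposited DESeq table called it higher (adjusted p = 0.0180) and their deposited Cuffdiff table did not (q = 0.552). TPCN1, another endolysosomal channel, stood at 15.3 and 23.0 CPM, with the controls at 46.8 and 41.5 CPM. The ryanodine receptor gene RYR3, a release channel best known from muscle and brain, had between 0.986 and 2.01 CPM in all lines.

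Of 9 tested regulators of IP3 receptors, 3 were higher and 2 lower in both translocation lines, beside 19.0% and 28.3% of all tested genes. BANK1, a B-cell adaptor that binds IP3 receptors, stood at 3.51 CPM in RS4;11 and 118 CPM in SEM, with the controls at 0.580 and 0.249 CPM. The authors' deposited Cuffdiff table called it higher (q = 0.0253) and their deposited DESeq table did not, and its log2 fold change of 7.29 (SE 2.15) became 3.21 without SEM and 8.26 without RS4;11. AHCYL2, a relative of the IP3 receptor inhibitor IRBIT, stood at 12.3 and 10.4 CPM, with the controls at 32.8 and 46.7 CPM. BCL2, which binds IP3 receptors and restrains release, overlapped between the groups, at 256 and 339 CPM with the controls at 128 and 390 CPM.

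Of 14 tested regulators of store-operated entry, 4 were higher and 1 lower in both translocation lines, beside 19.0% and 28.3% of all tested genes. HOMER2, a scaffold protein, stood at 19.0 and 39.9 CPM, with the controls at 7.63 and 5.75 CPM (log2 fold change 2.24, SE 0.52, edgeR adjusted p = 0.344). The HOMER2 value was 1.64 without SEM. ASPH, whose locus also encodes the store protein junctate, had 119 and 55.1 CPM, with 0.111 CPM in NALM6 and 51.1 CPM in REH. REH was close to SEM, and the low level was that of NALM6. TRPC4, a cation channel, had 0 counts in both translocation lines, 0.0223 CPM in NALM6 and 18.8 CPM in REH. The authors' deposited Cuffdiff table called it lower (q = 0.00418). It failed the count filter of the edgeR fit, and its counts lay almost wholly in REH.

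Of 9 tested pumps and exchangers outside the SERCA pair, 2 were higher and 2 lower in both translocation lines. The shares over all tested genes were 19.0% and 28.3%. ATP2B1, a calcium pump of the plasma membrane, stood at 118 and 336 CPM, with the controls at 85.6 and 52.6 CPM. The authors' deposited Cuffdiff table called it higher (q = 0.0134). Its log2 fold change of 1.81 (SE 0.62) was 0.90 without SEM and 2.38 without RS4;11. SLC8A3, a sodium-calcium exchanger, had 6.36 and 2.23 CPM, with 0 counts in NALM6 and 1.28 CPM in REH. Inside the store, 7 of 10 tested calcium-binding genes were higher in both translocation lines and none was lower. Over all tested genes these shares were 19.0% and 28.3%, and the list's median log2 fold change was 0.47. PDIA3, a disulfide isomerase, stood at 408 and 447 CPM, with the controls at 260 and 230 CPM (log2 fold change 0.91, SE 0.16, edgeR adjusted p = 0.310). RCN1, a low-affinity calcium binder, stood at 131 and 154 CPM, with the controls at 90.1 and 85.4 CPM. CALR, the main calcium buffer of the store, stood at 642 and 593 CPM, with the controls at 496 and 323 CPM.

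For the 10 tested mitochondrial uptake genes the median was -0.07, and none had an unadjusted p under 0.05. C22orf32, an essential uniporter subunit now named SMDT1, stood at 42.5 and 44.5 CPM, with the controls at 32.9 and 34.5 CPM. EFHA2 had 5.53 CPM in SEM and 0 counts in the other lines, and failed the count filter of the edgeR fit. The authors' deposited Cuffdiff table called it higher (q = 0.00418).

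Of 18 tested calcineurin and NFAT genes, 10 were higher and 3 lower in both translocation lines, beside 19.0% and 28.3% of all tested genes. Their median log2 fold change was 0.46. NFATC2, an NFAT transcription factor of lymphocytes, stood at 23.3 and 21.98 CPM, with the controls at 5.35 and 1.09 CPM. The authors' deposited DESeq table called it higher (adjusted p = 0.00617). Its log2 fold change of 2.92 (SE 0.93) was 4.47 without NALM6 and 2.18 without REH. NFATC4, another NFAT factor, stood at 9.16 and 0.446 CPM, with the controls at 156 and 135 CPM. Both of the authors' deposited tables called it lower (DESeq adjusted p = 2.85e-14, Cuffdiff q = 0.0308). Its log2 fold change of -4.80 (SE 1.60) was -8.25 without RS4;11 and -3.86 without SEM. CAMK2D, a calmodulin-dependent kinase, stood at 501 and 137 CPM, with the controls at 3.68 and 69.2 CPM. The authors' deposited Cuffdiff table called it higher (q = 0.00418). Its log2 fold change of 3.23 (SE 1.65) was 2.002 without RS4;11 and 6.54 without REH.

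**Figure D4:**
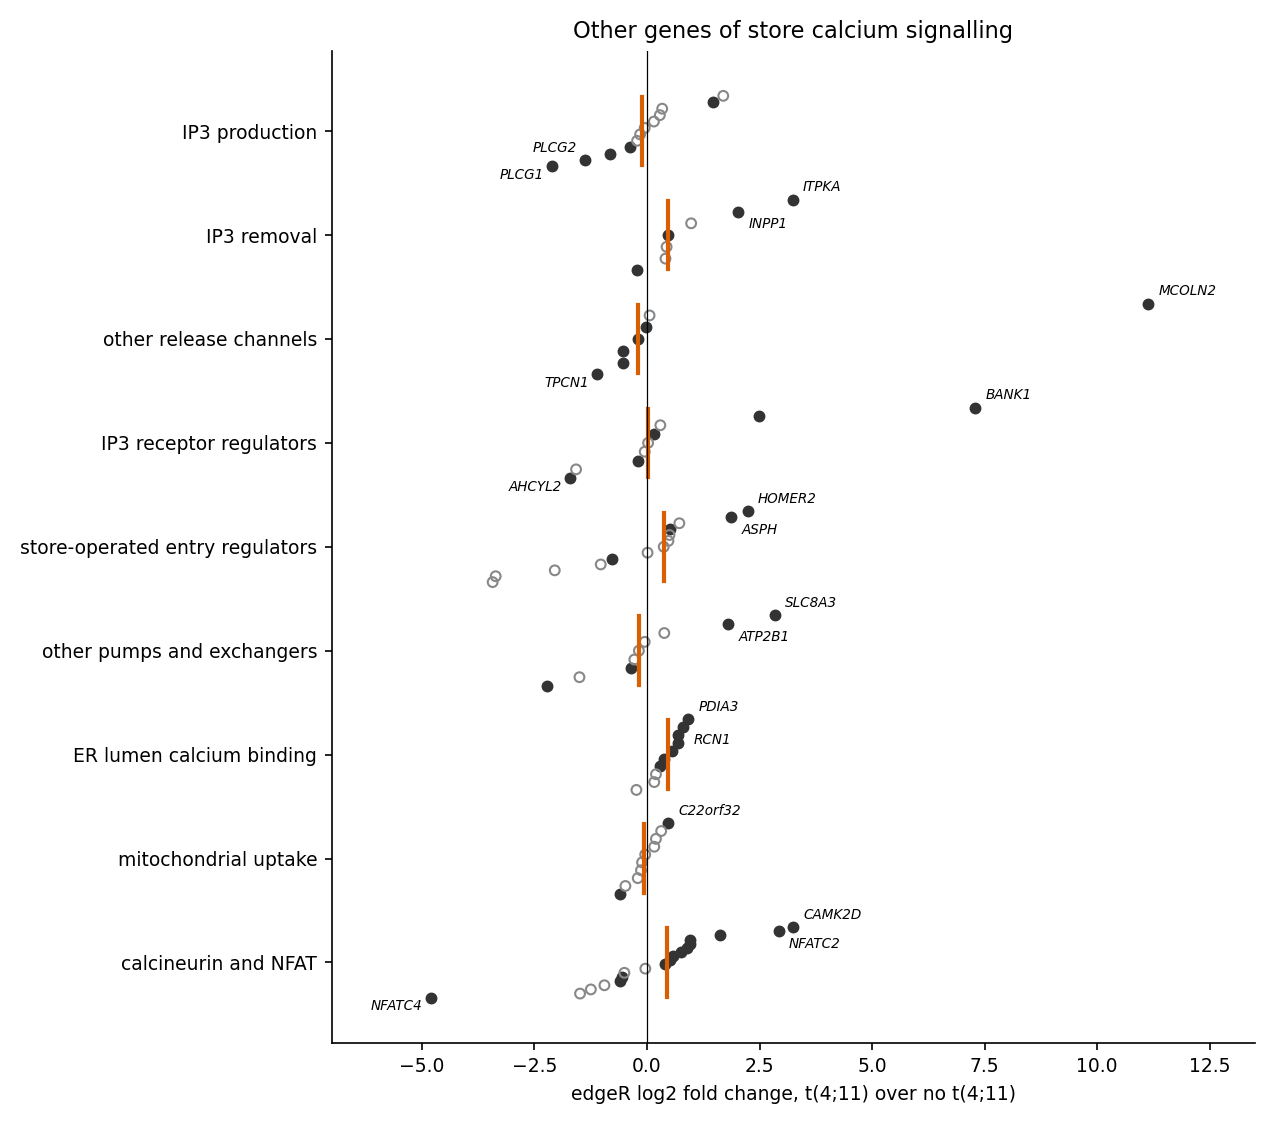
EdgeR log2 fold change of t(4;11) over no t(4;11) for 95 of the 96 tested genes of the 9 pathway lists, those with a count in both groups. Filled points are genes whose groups do not overlap, open points overlap, and the orange bar is the median of the drawn genes of a list. MCOLN2 (11.14) and BANK1 (7.29) lie farthest to the right and NFATC4 (-4.80) farthest to the left.

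Genes with a level pattern most like that of the 3 widest-ranging members were found among 12684 genes, by the smallest distance of centred log2(CPM + 1) over the 4 lines. For ITPR3 they were PLEKHG4B (distance 0.844), DTX1 (0.894) and CYBB (0.907). PLEKHG4B stood at 0.559 and 0.268 CPM, with the controls at 91.6 and 171 CPM. For ATP2A3 they were PLS1 (0.175), SOBP (0.219) and TESK2 (0.273), which lay between 0.482 and 16.9 CPM, far below ATP2A3 itself. For ORAI2 the nearest was RHOH, a GTPase of blood cells, at a distance of 0.0445. RHOH had 32.3, 15.8, 57.1 and 7.78 CPM in RS4;11, SEM, NALM6 and REH. PLEKHB1 (0.418) and LOC100134868 (0.426) came next. With 4 lines many patterns lie close together, and these distances carry no test.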

How the data were processed

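RNA-seq of 4 cell lines was analysed, 1 library per line. Tools listed in the submitters' processing notes are HTSeq, Cuffdiff, DESeq, TopHat, TopHat2 2.0.4 and CASAVA 1.8.2, with hg19 as the build. Their settings and the annotation were not given in the sources used here. The first deposited table gives raw counts for each gene in each line, per the file headers. It also holds the authors' normalized counts, a signal scaled per line, with their fold change as a ratio and DESeq p-values. The second holds the authors' Cuffdiff FPKM per group, log2 fold change, p-values and q-values, per the file headers. Deposited fold changes were turned to t(4;11) over control.

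Groups were compared in edgeR 4.0.16 under R 4.3.3 with filterByExpr, TMM, quasi-likelihood, two-sided, Benjamini-Hochberg adjustment over all 13844 tested genes at 0.05. The SE is the log2 fold change divided by the square root of F. Scaling by column sums instead moved the median log2 fold change of all genes from -0.02 to -0.12. No label says that the lines were cultured in parallel, and p-values measure only the spread between these lines. Exon lengths are unions of GENCODE 29 basic exons by symbol, with no coordinates carried over. In 28 rows, a symbol that a spreadsheet had turned into a date was left as it is. Named pathway genes are those called in the deposited DESeq table, plus per list the 2 largest fold changes with groups that do not overlap and a mean of at least 1 CPM. A gene that this rule picks is not reported here. Genes called by Cuffdiff, and BCL2, CALR and RYR3, were added after their values were seen. The 10 genes and the lists were chosen with earlier results of these data known. Alternatives were DESeq2 1.42.0, edgeR's exact test, RLE factors, column sums, no filter, the deposited values and leaving out each line. Among the 10 genes, low counts limit only ITPR3 in the translocation lines. Binomial 95% intervals (Clopper-Pearson) of the family count shares were at most ± 1.40 percentage points, for counting error only. Plots used Python 3.11.15 with matplotlib 3.10.9.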

Additional observations from a re-analysis of the deposited data

How the results depend on the processing

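EdgeR's quasi-likelihood test called 0 genes, and 0 to 0 when any 1 line was left out. It called 5 genes with no filter on low counts. The exact test of edgeR called 408 of 13844 genes, and DESeq2 called 1603 from the 23368 entries of the count table. The authors' deposited DESeq table called 288 of 18416 genes with an adjusted p, and their deposited Cuffdiff table called 332 of 14203 tested genes. Of the 115 pathway genes it called 0, also without any 1 line (0 to 0), against 4 by the exact test, 16 by DESeq2, 3 in the deposited DESeq table and 7 in the deposited Cuffdiff table. The number of calls thus depends on the tool, and the cause was not tested. The count of the 10 genes with a log2 fold change of at least 1 in size was 4, and 3 to 6 with 1 line left out. Under 10 alternatives the log2 fold change lay between -9.22 and -7.74 for ITPR3 and between -2.56 and -1.87 for ATP2A3. It kept its sign for ITPR1, ITPR2 and STIM1, and turned under leaving out 1 line for STIM2, ORAI1, ORAI2, ORAI3 and ATP2A2. With a line left out, its group holds 1 line, which is assumed to vary like the other group. The family shares of ITPR3 and ATP2A3 moved by less than the SD between lines without length division and in deposited FPKM. No paired analysis was possible because the labels give the lines no replicate numbers and nothing pairs a t(4;11) line with a control.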
